A study of Mus musculus with 10 samples.

Results

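A set of 36 genes that are widely used as markers of astrocytes was followed in RNAseq and ribosome footprinting (RF) libraries of mouse cortical cultures. Membership rests on this use as markers, although the genes were chosen with earlier results of these data known. Of the 36 genes, 33 had at least 1 Ensembl transcript in the counts (61 transcripts in all, among 22534 transcripts of 13189 genes), and of each gene the transcript with most RNAseq reads on average was followed. A transcript was called measured where 2 or more cultures had at least 10 RPKM (reads scaled to feature length and library size) in RNAseq and in RF alike, and 28 of the 33 genes passed, among 7262 measured transcripts of 4370 genes. Gjb6, Dio2, Itih3, Chrdl1 and Dbx2 were listed but stayed below this level, and no transcript was matched for Glul, Sparcl1 and F3. Of the 28 measured genes, 27 passed in all 5 cultures. Fgfr3 passed only in 2 untreated cultures. The limit was applied before the scaling of libraries described below, so that a scaled value can exceed it in a gene that did not pass.

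The cultures were grown from the cortex of newborn (P0) FVB pups of both sexes and held neurons together with glia. After 7 days, 3 cultures (1, 2 and 3) were left untreated, and cultures 4 and 5 received 55 mM KCl for 3 h, which depolarizes the cells. All were exposed to cycloheximide, which stalls ribosomes, just before lysis. An RNAseq and an RF library were made from each culture, so that transcript abundance, ribosomal occupancy of the coding sequence (CDS) and their ratio, the translation efficiency (TE), can be compared. The labels name neurons as the source, whereas the study's methods describe the mixed culture, in which RNA of neurons and glia cannot be separated, so that fewer astrocytes and less RNA per astrocyte cannot be told apart. Nothing in the labels ties the cultures to separate litters, and the p-values measure the spread between these cultures only.

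Astrocytes clear glutamate and potassium that active neurons release, move water and lipids, and are joined to each other by gap junctions. They respond to injury and to inflammation by a change of state in which intermediate filament proteins and many secreted proteins are raised. Ribosome footprints are the stretches of mRNA that a ribosome shields from nuclease, and their density on a CDS follows how many ribosomes translate it.

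The RNAseq libraries held 3056286 to 3629959 counted reads and the RF libraries 1463654 to 7719915. The RF libraries of untreated culture 3 and KCl culture 4 were the smallest. Values below are RPKM with library sizes scaled by TMM (trimmed mean of M values) within each assay, RNAseq over the whole transcript and RF over the CDS, so that a level can be compared between genes. All changes are relative to the bulk of the transcripts in the same assay, and a shift shared by all transcripts is not visible on this scale.

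Most of the astrocyte transcripts followed here had RNAseq levels in the upper part of the range, which is given as a description since the transcript with most RNAseq reads was taken for each gene. In untreated cultures, 24 of the 28 measured genes lay above the median RNAseq level of all measured transcripts (27.1 RPKM) and 17 lay above the 95th percentile (176 RPKM). Against 1 transcript for each of the 4370 measured genes, chosen in the same way, the median was 26.9 RPKM, the 95th percentile 179 RPKM and the numbers again 24 and 17. Cst3, which encodes the secreted protease inhibitor cystatin C, had the highest level with 6642 ± 186 RPKM (SD, n = 3). It was followed by Apoe, a lipid carrier, with 4731 ± 255 RPKM, by Gfap, the astrocytic intermediate filament, with 2383 ± 343 RPKM, and by Vim, the filament vimentin, with 1922 ± 12.1 RPKM. Of 12 neuronal markers, 10 had a transcript in the counts and 4 were measured. The transcripts of these 10 together reached 246 to 339 RPKM in the untreated cultures, less than Gfap by itself, which is not a measure of cell numbers. At the low end, Fgfr3, a growth factor receptor, had 13.0 ± 1.20 RPKM and Acsl6, an acyl-CoA synthetase, 21.9 ± 1.42 RPKM. The defining astrocyte markers Gfap, Aqp4, Aldh1l1, Slc1a3, Gja1 and Sox9 were all measured, between 53.9 RPKM (Aldh1l1) and 2383 RPKM (Gfap).

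**Figure D1:**
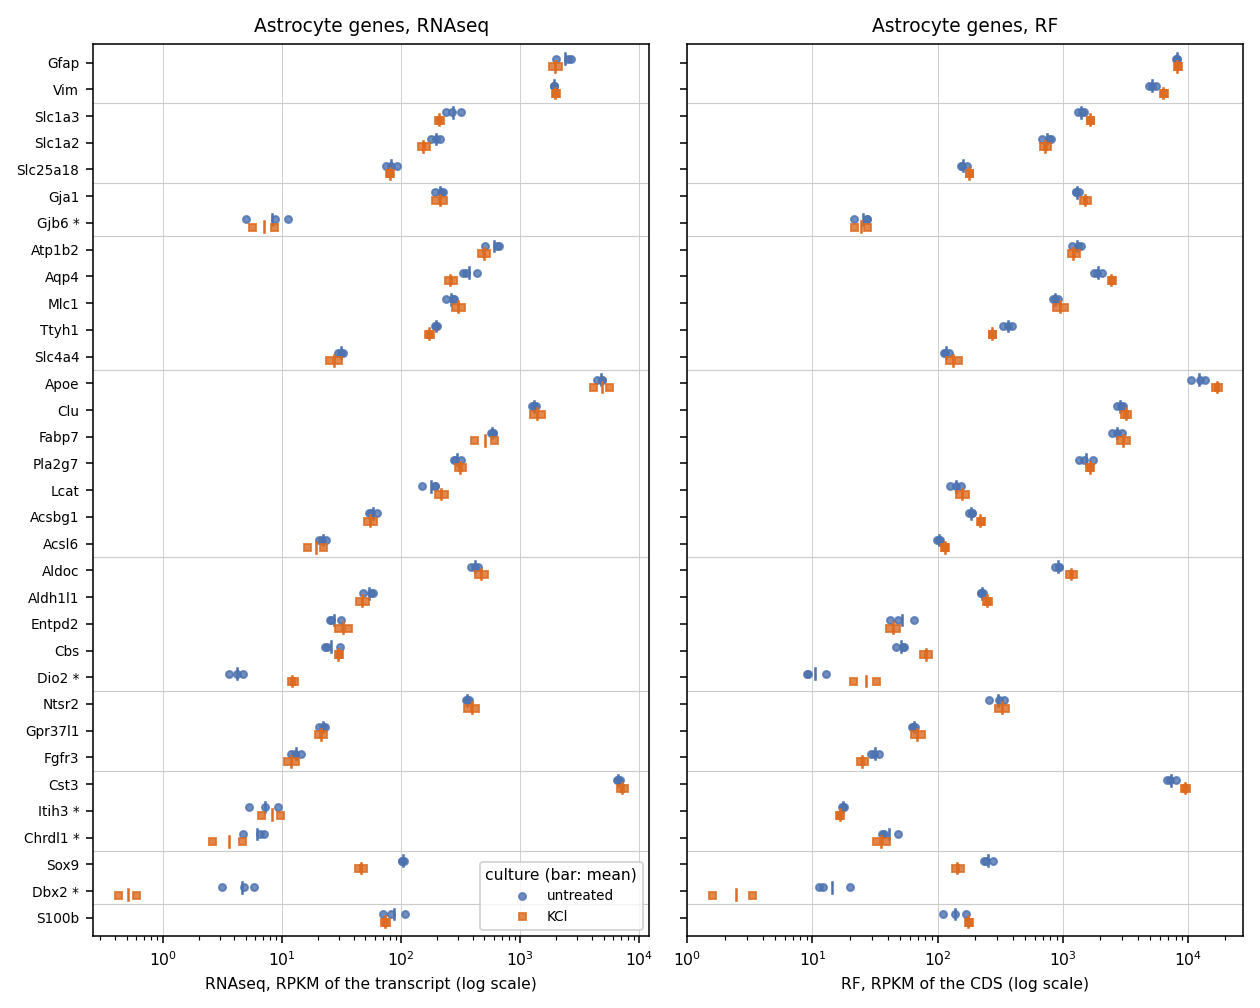
RNAseq RPKM of the transcript (left) and RF RPKM of the CDS (right), both on log axes, of the 33 astrocyte genes with a transcript in the counts, grouped by role between the grey lines. Each point is a culture (circles, 3 untreated; squares, 2 KCl), the short bars are group means, and an asterisk marks the 5 genes below the filter. Sox9, Dbx2 and Dio2 are the genes whose untreated and KCl points stand well apart in both panels.

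Baseline TE was high for most of these genes. The median TE of the 28 genes in untreated cultures was 2.66, against 1.81 for all measured transcripts, and 24 of the 28 were above the median of all. Of these, 13 lay above the 75th percentile of all (2.83). Gja1, which encodes the gap junction protein connexin 43, had the highest TE of the 28 with 6.22 ± 0.70 (SD, n = 3), higher than 96.6% of measured transcripts. The glutamate transporter Slc1a3 (5.26 ± 0.91), the water channel Aqp4 (5.24 ± 0.89), the phospholipase Pla2g7 (5.23 ± 0.96), the fatty acid binding protein Fabp7 (4.67 ± 0.41) and Acsl6 (4.66 ± 0.16) came next, and their order is within the spread between cultures. Lcat, a secreted cholesterol acyltransferase (0.80 ± 0.14), the neurotensin receptor Ntsr2 (0.84 ± 0.10) and Cst3 (1.12 ± 0.12) lay below the 25th percentile of all (1.17), and S100b, a calcium-binding protein, was at 1.61 ± 0.31. Ntsr2 and Aqp4 were thus near each other in RNAseq level (360 ± 10.5 and 371 ± 52.2 RPKM) but far apart in RF level (304 ± 43.2 and 1915 ± 130 RPKM). The size of these ratios depends on which RNAseq reads enter: with CDS reads over the CDS length, the median of the 28 was 1.43 against 0.95 for all, and 20 were above the median of all. The Fabp7 transcript had 0 or 1 RNAseq reads past its CDS in each culture, although 230 of its 880 nt are 3′UTR. Its RNAseq RPKM is lowered and its TE raised by this length.

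**Figure D2:**
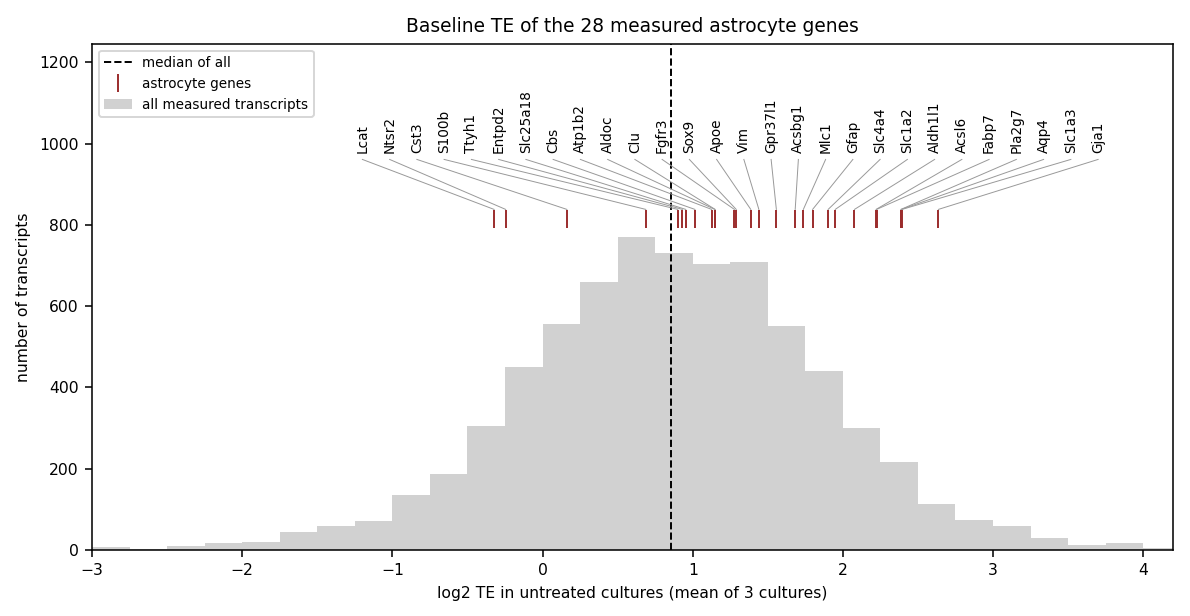
Baseline TE (mean of the 3 untreated cultures, log2 scale) of all 7262 measured transcripts as a histogram of transcript numbers, with the median of all as a dashed line and the 28 astrocyte genes as red ticks with names. Most ticks lie right of the dashed line, Gja1 (6.22) is the rightmost, and Lcat (0.80) and Ntsr2 (0.84) are the leftmost.

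The sequences around the start codon are shown for genes at both ends of this range, since the bases next to the ATG are known to affect initiation. Each line gives 9 bases before and 9 after the start codon, which is in capitals, from GENCODE M21 transcripts on GRCm38.
Gja1: tgcccagacATGggtgactgg
Slc1a3: agataaaatATGaccaaaagc
Pla2g7: gctcctaagATGgtaccactc
Fabp7: cggttaaggATGgtagatgct
Acsl6: ctcaccgacATGctgaccttc
Cst3: tagccaaccATGgccagcccg
Ntsr2: gagacagagATGgagaccagc
The Gja1 window lies at chr10:56387538-56387558 (plus strand), that of Slc1a3 at chr15:8708731-8708751 (minus), that of Cst3 at chr2:148875366-148875386 (minus) and that of Ntsr2 at chr12:16653491-16653511 (plus), all across the boundary of 5′UTR and CDS. Of 27 measured astrocyte genes with such a window, 23 had A or G 3 bases before the ATG, 12 had G just after it and 11 had both. Among all measured transcripts with a window, 86% had the first, 49.6% the second and 43.5% both. Cst3 and Ntsr2, with low TE, carry both features, as do Gja1, Pla2g7 and Fabp7, with high TE. An ATG upstream of the start codon was present in the 5′UTR of 10 of the 28 genes, against 50.1% of all measured transcripts. Slc1a3 has 3 and Pla2g7 has 5 of them.

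After KCl, 4 of the 28 genes were called in RNAseq, 11 in RF and 2 in TE. The 4 genes that passed an adjusted p of 0.05 in RNAseq (edgeR) were all lower (Sox9, Aqp4, Slc1a3 and Slc1a2), against 33% of all measured transcripts called in either direction (17.9% higher and 15.1% lower). In RF, 9 genes rose (Cbs, Apoe, Aqp4, Aldoc, Cst3, Vim, Acsbg1, Slc1a3 and Gja1) and 2 fell (Sox9 and Ttyh1), against 40.9% of all called (20.8% higher and 20.1% lower). Scaled by library totals and not by TMM, the RF numbers were 5 that rose and 4 that fell. Among all 364 transcripts above the 95th percentile of RNAseq level, where 17 of the 28 genes lie, 31.9% were called higher in RF, against 41.2% of these 17. Of the other 11 genes, which lie on both sides of the median RNAseq level, 18.2% were called higher. Among all transcripts the share was 18.2% from the 50th to the 95th percentile and 22% up to the 50th. In TE, 2 rose (Aqp4 and Slc1a3) and 0 fell, against 5.8% of all called (1.53% higher and 4.27% lower). By DESeq2 the numbers were 0 and 4, 9 and 2, and 2 and 0 for genes higher and lower in RNAseq, RF and TE. At an unadjusted p under 0.05 in edgeR, 0 genes were higher and 6 lower in RNAseq (21.4% and 20.4% of all), 11 higher and 3 lower in RF (24.3% each of all), and 7 higher and 0 lower in TE (7.09% and 9.85% of all).

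The median log2 change of the 28 genes was -0.07 in RNAseq, 0.16 in RF and 0.26 in TE, beside -0.00, -0.01 and 0.01 for all measured transcripts. The fitted TE change was above 0 for 23 of the 28 genes, against 51.1% of all, and the fitted RF change for 22, against 49%. The TE of both KCl cultures lay above all 3 untreated cultures for 17 genes and below them for 2, against 15.7% and 18.3% of all measured transcripts (33.9% in either direction). In RF both KCl cultures lay above the untreated ones for 14 genes and below for 3, against 30.2% and 31% of all. Abundant transcripts of any kind leaned the same way: among the 364 transcripts above the 95th percentile of RNAseq level, 65.7% had a TE change above 0 and the median was 0.08. For the 17 astrocyte genes above that percentile the share was 82.4% and the median 0.21, and for the other 11 it was 81.8% and 0.34.

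**Figure D3:**
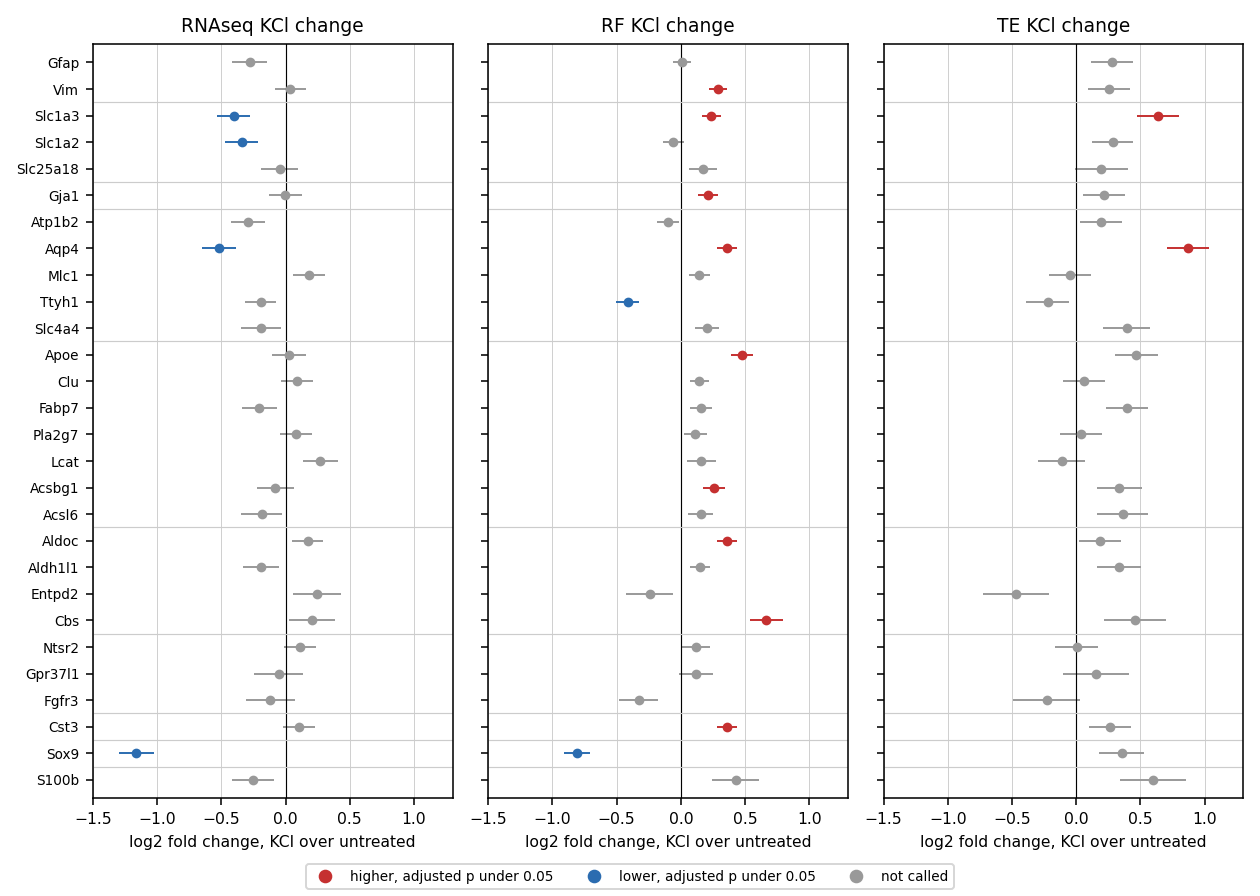
Log2 fold change of KCl over untreated cultures with its standard error for the 28 measured astrocyte genes in RNAseq, RF and TE (edgeR; 3 untreated and 2 KCl cultures), grouped by role between the grey lines. Red and blue points passed an adjusted p of 0.05 upward and downward. Aqp4 and Slc1a3 are blue in RNAseq and red in RF and TE, and Sox9 (-1.16 in RNAseq) is the point farthest to the left.

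Aqp4, the water channel of astrocytic endfeet, moved in opposite directions in the 2 assays. Its RNAseq level was 430, 351 and 332 RPKM in untreated cultures 1 to 3 and 273 and 246 RPKM in KCl cultures 4 and 5. Both KCl cultures were thus below every untreated culture. Its RF level was 1900, 1793 and 2052 RPKM untreated and 2420 and 2475 RPKM after KCl. The order was the reverse of that in RNAseq, again without overlap. TE was 4.42, 5.11 and 6.19 untreated and 8.86 and 10.1 after KCl. In edgeR, the log2 change was -0.52 ± 0.13 (SE) in RNAseq (adjusted p = 0.00187), 0.36 ± 0.08 in RF (adjusted p = 4.3e-04) and 0.87 ± 0.16 in TE (adjusted p = 1.6e-05), a TE change above that of 98.9% of measured transcripts. The RNAseq call was lost with CDS reads only (log2 change -0.35, adjusted p = 0.0926), and the TE call without KCl culture 5 (0.77, adjusted p = 0.0645 in edgeR, with the remaining KCl culture assumed to vary as the untreated cultures do).

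Slc1a3 encodes GLAST, a transporter that takes up glutamate released at synapses, and showed the same opposite pattern at a smaller size. RNAseq was 319, 266 and 237 RPKM in untreated cultures and 211 and 203 RPKM after KCl, and RF was 1431, 1336 and 1483 RPKM against 1671 and 1667 RPKM. TE was 4.49, 5.02 and 6.26 untreated and 7.93 and 8.20 after KCl. The groups did not overlap in any of these measures. The log2 change was -0.40 ± 0.13 in RNAseq (edgeR adjusted p = 0.0142), 0.24 ± 0.07 in RF (adjusted p = 0.0113) and 0.63 ± 0.16 in TE (adjusted p = 0.00449). The TE call was lost in edgeR without KCl culture 4 (log2 change 0.67, adjusted p = 0.119) or 5 (0.61, adjusted p = 0.228), and the RNAseq call with CDS reads only (-0.28, adjusted p = 0.159), without KCl culture 5 (-0.38, adjusted p = 0.0922), with filterByExpr (adjusted p = 0.0527) or with no filter (adjusted p = 0.0524). The RF call was lost without KCl culture 4 (0.24, adjusted p = 0.113) or 5 (0.24, adjusted p = 0.128), with library totals (0.10, adjusted p = 0.269), with at least 100 reads in every library (0.12, adjusted p = 0.199) and in 1 fit of all 10 libraries (0.24, adjusted p = 0.0853).

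Slc1a2 encodes GLT-1, the other main astrocytic glutamate transporter, and only its RNAseq level passed the test. RNAseq was 213, 178 and 195 RPKM untreated and 161 and 147 RPKM after KCl, a log2 change of -0.34 ± 0.13 (edgeR adjusted p = 0.0321) that was lost under 5 of 14 alternatives. These were leaving out untreated culture 3 (log2 change -0.35, edgeR adjusted p = 0.0862) or KCl culture 5 (-0.28, adjusted p = 0.212), CDS reads only (-0.35, adjusted p = 0.0932), filterByExpr (-0.28, adjusted p = 0.119) and no filter (-0.28, adjusted p = 0.128). RF was 773, 681 and 808 RPKM untreated and 752 and 693 RPKM after KCl, so that the groups overlapped (adjusted p = 0.601). TE was 3.63, 3.82 and 4.14 against 4.67 and 4.71 and did not pass (log2 change 0.28 ± 0.16, adjusted p = 0.369). Slc25a18, a mitochondrial glutamate carrier, passed in no comparison, with log2 changes of -0.05 in RNAseq, 0.17 in RF and 0.20 in TE.

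Of the other genes for ions, water and cell volume, only Ttyh1 was called. Ttyh1 encodes a membrane protein of the tweety family, and its RF level was 369, 332 and 397 RPKM in untreated cultures and 271 and 274 RPKM after KCl. Both KCl cultures were below the untreated range, at a log2 change of -0.41 ± 0.09 (edgeR adjusted p = 6.2e-04). Its RNAseq level of 196, 201 and 193 RPKM against 170 and 173 RPKM did not overlap either but did not pass the test (log2 change -0.19 ± 0.12, adjusted p = 0.232). Mlc1, a membrane protein whose loss causes a leukoencephalopathy with cysts, Atp1b2, a subunit of the sodium pump, and Slc4a4, a sodium bicarbonate cotransporter, passed in no comparison. Kcnj10, the potassium channel Kir4.1 that takes up potassium in astrocytes, is not one of the 36 genes and belongs to a further list described at the end. It fell in RNAseq (log2 change -0.36 ± 0.12, adjusted p = 0.0216) and in RF (-0.47 ± 0.09, adjusted p = 1.2e-04).

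Of the filament genes, Vim was called in RF and Gfap in no comparison, and the difference between them was not tested. Vim rose in RF from 5555, 5169 and 4923 RPKM to 6309 and 6435 RPKM, a log2 change of 0.29 ± 0.07 (edgeR adjusted p = 0.00208) that was lost without KCl culture 5 (0.27, adjusted p = 0.0681) and with library totals (0.16, adjusted p = 0.0842). Gfap had 8020, 8275 and 8248 RPKM in untreated cultures and 8148 and 8309 RPKM after KCl, which overlap (log2 change 0.01 ± 0.07, adjusted p = 0.931). The RNAseq level of Gfap overlapped as well, with 1995, 2646 and 2508 RPKM against 1862 and 2062 RPKM (log2 change -0.28 ± 0.13, adjusted p = 0.103). In TE the log2 changes of Vim and Gfap were 0.25 and 0.28, neither of which passed, with both KCl cultures above all untreated ones in each.

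In RF, 2 of the 7 genes for lipid carriers and lipid enzymes rose, and in RNAseq and TE none of the 7 passed. Apoe had 13753, 10615 and 12523 RPKM in RF in untreated cultures and 16695 and 17463 RPKM after KCl, above every untreated culture (log2 change 0.47 ± 0.08, edgeR adjusted p = 1.1e-04). The RNAseq level of Apoe was 4436, 4884 and 4871 RPKM against 4112 and 5527 RPKM, which overlap, and its TE change of 0.47 ± 0.16 missed the threshold (adjusted p = 0.0672). Acsbg1, an acyl-CoA synthetase for very long fatty acids, had 188, 179 and 187 RPKM in RF untreated and 218 and 223 RPKM after KCl (log2 change 0.26 ± 0.08, adjusted p = 0.0149). That call was lost under 5 of 14 alternatives, which were leaving out KCl culture 4 (0.27, edgeR adjusted p = 0.089) or 5 (0.24, adjusted p = 0.178), library totals (0.13, adjusted p = 0.234), at least 100 reads (0.14, adjusted p = 0.159) and 1 fit of all libraries (0.26, adjusted p = 0.0667). The remaining 5 genes of the group, Clu, Fabp7, Pla2g7, Lcat and Acsl6, had RF log2 changes between 0.11 and 0.16.

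Gja1, also the gene with the highest baseline TE among the 28 measured, had 1280, 1350 and 1276 RPKM in RF in untreated cultures and 1446 and 1569 RPKM after KCl. This is a log2 change of 0.21 ± 0.08 (edgeR adjusted p = 0.0268), the smallest called here. The call was lost under 7 of 14 alternatives, among them library totals (0.08, adjusted p = 0.42) and leaving out untreated culture 1 (0.20, adjusted p = 0.0544), KCl culture 4 (0.27, adjusted p = 0.0691) or KCl culture 5 (0.15, adjusted p = 0.379). Its RNAseq level was 223, 192 and 216 RPKM against 227 and 194 RPKM and overlapped between the groups.

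Among the other enzymes, Cbs and Aldoc rose in RF. Cbs encodes cystathionine beta-synthase, which draws homocysteine into cysteine synthesis, and had 53.1, 46.3 and 53.6 RPKM in RF untreated and 84.5 and 76.9 RPKM after KCl. These values rest on 94 to 503 footprints per culture, and the log2 change of 0.67 ± 0.13 (edgeR adjusted p = 1.5e-04) was the largest rise in RF of the 28 genes. In RNAseq Cbs had 22.99, 30.5 and 24.0 RPKM against 29.9 and 29.7 RPKM, which overlap (adjusted p = 0.41). Aldoc, the brain form of the glycolytic enzyme aldolase, had 937, 872 and 929 RPKM in RF against 1135 and 1204 RPKM after KCl (log2 change 0.36 ± 0.08, adjusted p = 4.7e-04), a call that missed the threshold without KCl culture 5 (adjusted p = 0.0509).

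Aldh1l1, a folate enzyme much used to mark astrocytes, passed in no comparison. Its RNAseq level was 47.6, 56.1 and 57.9 RPKM in untreated cultures and 44.5 and 49.9 RPKM after KCl, which overlap. Its RF level was 230, 222 and 225 RPKM against 245 and 254 RPKM, without overlap but at a log2 change of 0.15 ± 0.08 (edgeR adjusted p = 0.143). Entpd2, an enzyme that degrades extracellular ATP, had the lowest TE change of the 28 genes (log2 change -0.47 ± 0.26, adjusted p = 0.345).

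Cst3 rose in RF, from 8064, 7291 and 6893 RPKM to 9383 and 9667 RPKM (log2 change 0.36 ± 0.08, edgeR adjusted p = 3.9e-04), while its RNAseq level of 6490, 6586 and 6849 RPKM against 6850 and 7426 RPKM did not pass (adjusted p = 0.56). The receptors Fgfr3, Ntsr2 and Gpr37l1 were called in no comparison, with log2 changes in RNAseq between -0.12 and 0.12 and in RF between -0.33 and 0.12. S100b, with 50 to 218 CDS footprints per culture, had a TE change of 0.60 ± 0.26 (adjusted p = 0.175).

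Sox9, a transcription factor that astrocytes and their precursors use to set their identity, had the largest change of the 28 measured genes in RNAseq and in RF, a fall in both. RNAseq was 102, 105 and 102 RPKM in untreated cultures and 43.6 and 48.4 RPKM after KCl, 44.7% of the untreated mean. RF was 244, 276 and 236 RPKM against 136.8 and 151.0 RPKM, 57.1% of the untreated mean. The 2 groups were far apart in both. The log2 change was -1.16 ± 0.13 in RNAseq (edgeR adjusted p = 4.6e-09) and -0.81 ± 0.10 in RF (adjusted p = 1.8e-07), and it was called under all 14 alternatives in each. TE was 2.39, 2.62 and 2.32 untreated and 3.14 and 3.12 after KCl, which did not pass (log2 change 0.35 ± 0.18, adjusted p = 0.281).

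The 5 genes below the filter were tested in fits without a filter, in which 19% of 21950 transcripts were called in RNAseq, 25.9% of 20864 in RF and 1.76% of 22374 in TE. Dbx2, a homeobox transcription factor, had 28, 43 and 49 RNAseq reads in untreated cultures and 5 and 4 after KCl. Its RF reads fell likewise, from 79, 63 and 24 to 2 and 8 in libraries of unequal size. The log2 change was -3.10 ± 0.49 in RNAseq (edgeR adjusted p = 1.3e-08) and -2.20 ± 0.43 in RF (adjusted p = 5.7e-06). Dio2, the deiodinase that activates thyroid hormone, had 71, 63 and 51 RNAseq reads untreated and 178 and 188 after KCl, and 42, 36 and 11 RF reads against 29 and 36. It rose by a log2 change of 1.60 ± 0.21 in RNAseq (adjusted p = 1.6e-12) and 1.46 ± 0.31 in RF (adjusted p = 2.7e-05), and its TE change was not called (-0.11 ± 0.39). Gjb6, which encodes connexin 30, the secreted Itih3, and Chrdl1, an inhibitor of bone morphogenetic proteins, were not called in any of the 3 fits. The fall of Dbx2 had the same direction in both assays as that of Sox9, the other transcription factor of the set.

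Footprints also lie on the 5′UTR, where upstream initiation leaves ribosomes. For 20 measured genes with a 5′UTR of at least 50 nt and at least 50 footprints on it over the 5 RF libraries, the footprints of the 5′UTR were taken as a percentage of those on the CDS. In 7 of the 20 (Slc1a3, Clu, Acsbg1, Cst3, Cbs, Vim and S100b) both KCl cultures lay below all untreated cultures, and in 0 above. Among 3550 measured transcripts under the same minimum, 11% lay below and 18.6% above, and pooled over all measured transcripts the percentage was 6.45, 5.87 and 8.65 in untreated cultures and 6.76 and 7.36 after KCl.

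The 5′UTR of Slc1a3 had footprints equal to 11.7%, 13.7% and 11.8% of those on its CDS in untreated cultures and 10.03% and 9.24% after KCl. For Cbs the values were 10.1%, 9.36% and 11.7% against 4.49% and 5.88%, although they rest on 7 to 51 footprints. For Vim they were 2.48%, 4.15% and 4.88% against 1.81% and 2.14%. In all 3 genes the RF level of the CDS was called higher, and the share upstream of the start codon did not overlap between the groups. More footprints on the CDS lower this share by themselves, so it does not tell whether footprints on the 5′UTR fell. Of the other genes called higher in RF, Apoe, Aqp4, Aldoc and Gja1 overlapped in this share, and Acsbg1 and Cst3 did not. For Cst3 the means were 5.69 ± 0.50% (SD, n = 3) and 4.02 ± 0.41% (n = 2), and for Clu 5.79 ± 0.21% and 4.59 ± 0.19%. Aqp4 has very few footprints on its 5′UTR, 0.27 ± 0.08% of those on its CDS untreated and 0.43 ± 0.25% after KCl. With 5 cultures an exact permutation test cannot go below p = 0.1, so these shares are given as a description.

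The deposited counts hold a region between the CDS and the rest of the 3′UTR that matches the in-frame stretch from the annotated stop codon to the next one, called the extension here. Among 2744 transcripts with an extension of at least 31 nt and at least 500 RNAseq reads on the CDS, 96.2% had reads on this region, against 6.51% of 538 with a shorter one. Ribosomes that read through a stop codon would leave footprints there. Over all measured transcripts the extension held 0.21% to 0.26% as many footprints as the CDS in each culture.

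Aqp4 was the astrocyte gene with most footprints on its extension, which spans 84 nt (28 codons) at chr18:15393367-15393450 on the minus strand and is 3′UTR in GENCODE M21. No CDS of its 9 annotated coding transcripts overlaps it. It held 307, 413 and 74 footprints in untreated cultures and 22 and 54 after KCl, against 10635, 8553 and 2123, and 2637 and 5169 on the CDS. This is 2.89%, 4.83% and 3.49% of the CDS footprints untreated and 0.83% and 1.05% after KCl, so that the groups are far apart. The remaining 3′UTR, which makes up most of the transcript, held 4 to 23 footprints per culture. RNAseq reads on the extension were 108, 78 and 67 untreated and 60 and 74 after KCl, beside 495, 432 and 399, and 324 and 364 on the CDS.

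The change of extension footprints relative to CDS footprints was tested in edgeR over the 280 measured transcripts with at least 5 extension footprints in at least 2 RF libraries. These transcripts belong to 201 genes. Of the 280, 4.64% were called (4.29% lower), and the 13 called transcripts belong to 5 genes. Aqp4 had a log2 change of -1.94 ± 0.33 (adjusted p = 1.1e-06), 3.73 ± 0.99% (SD, n = 3) against 0.94 ± 0.15% (n = 2). The median of the 280 was -0.44, and the minimum of 5 footprints is more easily met in untreated cultures 1 and 2, which have the largest libraries. The comparison was chosen after the values were seen. The call of Aqp4 was kept without each culture in turn (log2 change between -2.13 and -1.68, largest adjusted p = 0.0199) and lost by DESeq2 (log2 change -1.96, adjusted p = 0.136), which called 0 of the 280. An exact permutation test of the percentages gave p = 0.1, the smallest that 5 cultures allow.

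In GENCODE M21, Aqp4 ends in TGA followed by CTA, a context known to favour readthrough. TGACTA at the stop codon was found in 28 of 7254 measured transcripts (0.386%, 16 genes), and 2 of the 28 measured astrocyte genes hold it, Aqp4 and Mlc1. The stop windows of Mlc1 and of genes with ordinary contexts are shown for comparison, with the stop codon, and for Mlc1 the bases CTA after it, in capitals.
Mlc1: atggcccagTGACTAcaggat
Gfap: gtggtgatgTGAggtgtgccc
Apoe: gagaatcaaTGAgtatccttc
Gja1: ctggagattTAAacaggcttg
The Mlc1 window lies at chr15:88957013-88957033, that of Gfap at chr11:102888668-102888688 and that of Apoe at chr7:19696371-19696391 (all minus strand), and that of Gja1 at chr10:56388684-56388704 (plus strand). Each spans the end of the CDS and the start of the 3′UTR. The Mlc1 extension of 66 nt held 16, 9 and 5 footprints untreated and 2 and 1 after KCl, or 0.30 ± 0.13% of the CDS footprints against 0.11 ± 0.10%. In untreated cultures this was second to Aqp4 among the 28 genes, ahead of Ntsr2 (0.16 ± 0.16%, which has no such motif). Its change did not pass the test (edgeR adjusted p = 0.301). For Gfap the share was 0.0207 ± 0.00505% and 0.0128 ± 0.00584% (adjusted p = 0.703).

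Apoe, with an extension of 123 nt and no such motif, had 21, 36 and 2 footprints there untreated and 0 and 1 after KCl, against 12478 to 74119 on the CDS. It was called lower in edgeR (adjusted p = 1.3e-04), but not by DESeq2 (adjusted p = 0.138), nor without KCl culture 4 (adjusted p = 0.101) or 5 (adjusted p = 0.355), and it no longer met the minimum of footprints without untreated culture 1 or 2. Vim and Gja1 were tested as well and not called.

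**Figure D4:**
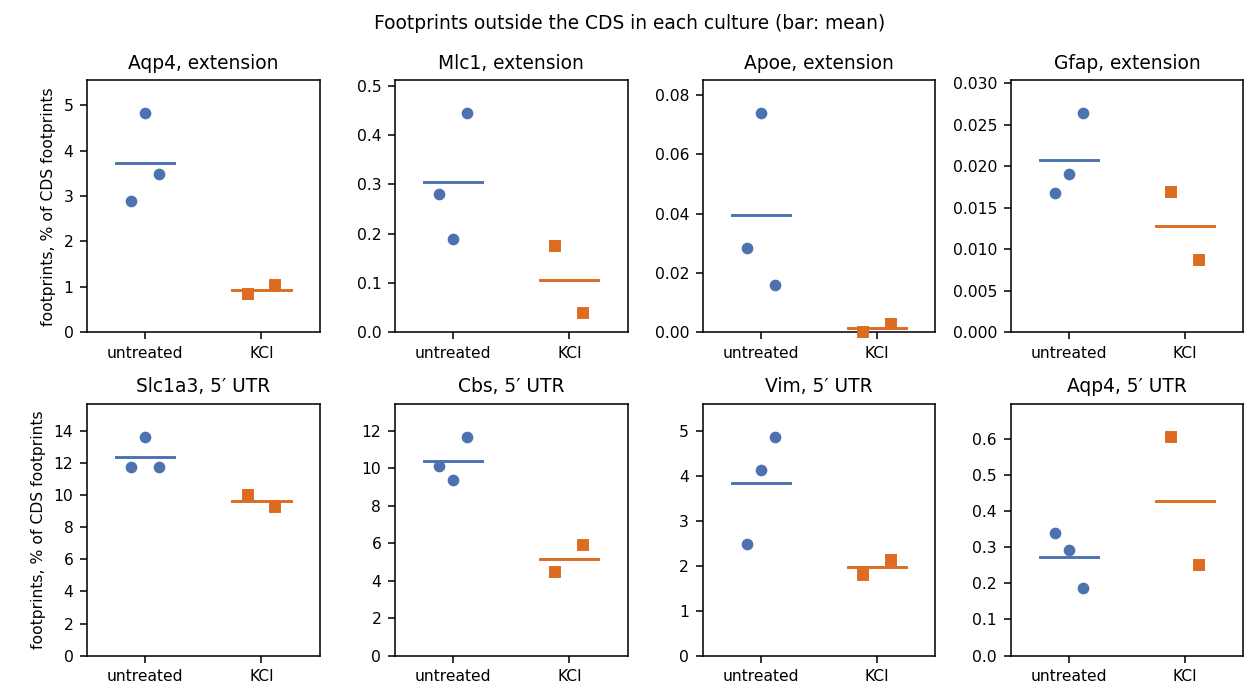
Footprints on the extension after the stop codon (top row: Aqp4, Mlc1, Apoe, Gfap) and on the 5′UTR (bottom row: Slc1a3, Cbs, Vim, Aqp4) as a percentage of the CDS footprints of the same culture, with a separate axis from 0 for each panel. Each point is a culture (3 untreated, 2 KCl) and bars are means. The Aqp4 extension is at 2.89% to 4.83% untreated and 0.83% to 1.05% after KCl, more than the other extensions shown.

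Genes linked to the reactive state of astrocytes formed a separate list of 37, of which 24 were in the counts and 12 were measured. Of the 12, 9 fell and 1 rose in RNAseq (15.1% and 17.9% of all measured transcripts), 11 fell and 1 rose in RF (20.1% and 20.8% of all), and 0 were called in TE by edgeR or DESeq2 (5.8% of all in edgeR). At an unadjusted p under 0.05, 2 were higher and 1 lower in TE (7.09% and 9.85% of all), and Cd14 had the smallest adjusted p in edgeR (0.07). The median log2 change was -1.07 in RNAseq and -0.95 in RF. Tgm1, a transglutaminase, fell by 2.51 ± 0.21 on the log2 scale in RNAseq (edgeR adjusted p = 1.4e-12), Lcn2, the secreted lipocalin 2, fell by 1.89 ± 0.19, Osmr, the oncostatin M receptor, fell by 1.77 ± 0.16, and S1pr3, a sphingosine 1-phosphate receptor, fell by 1.70 ± 0.13. In S1pr3 the RNAseq level went from 231, 252 and 228 RPKM to 65.9 and 79.8 RPKM. After KCl Tgm1 was at 5.8 and 6.4 RPKM in RNAseq, so it passed the filter of 10 RPKM only through the untreated cultures. Before scaling, Osmr lay below this filter in KCl culture 4. The falls of Tgm1 and Osmr are therefore given as a description, and the numbers of genes that fell include them. Stat3, a transcription factor active in reactive astrocytes, was the gene that rose (0.36 ± 0.13 in RNAseq, adjusted p = 0.0312, and 0.57 ± 0.08 in RF). Microglia and vascular cells also express several of these genes, so the list is not a count of astrocytes. Gfap and Vim, whose proteins mark the same state, are described above, and neither was called lower in RF.

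A further list of 65 genes expressed in astrocytes, none of them among the 36, had 57 genes in the counts and 41 measured. In RNAseq 6 rose and 13 fell (17.9% and 15.1% of all measured transcripts), in RF 11 rose and 11 fell (20.8% and 20.1% of all), and in TE 3 rose and 0 fell (1.53% and 4.27% of all). The genes that fell in RNAseq include Cxcl14, which before scaling lay below the filter of 10 RPKM in both KCl cultures and passed only through the untreated ones. The median log2 change was -0.14, -0.01 and 0.09. Thbs1, the secreted synaptogenic protein thrombospondin 1, had the largest rise, from 12.04, 14.3 and 11.1 RPKM to 61.1 and 54.3 RPKM in RNAseq (log2 change 2.21 ± 0.15) and from 100.0, 97.7 and 97.6 RPKM to 473 and 490 RPKM in RF. Before scaling, Thbs1 lay below the filter of 10 RPKM in untreated cultures 1 and 3, so it passed only with the KCl cultures. Its rise is therefore given as a description, and the numbers of genes that rose include it. It was followed by the nuclear receptor Rorb (1.00 ± 0.14), the claudin Cldn10 (0.51 ± 0.19) and Ndrg2 (0.45 ± 0.13). Ppp1r3c, a subunit that directs a phosphatase to glycogen, had the largest fall (-2.88 ± 0.19 in RNAseq and -2.94 ± 0.16 in RF), followed by Efhd2 (-1.05 ± 0.18) and the metallothioneins Mt2 (-0.98 ± 0.13) and Mt1 (-0.97 ± 0.13). Before scaling, Ppp1r3c lay below the filter in KCl culture 4, and its fall is likewise given as a description. Mt1 was also 1 of the 3 genes called higher in TE (log2 change 0.76 ± 0.16, adjusted p = 3.4e-04), with the sulfur transferase Tst (0.68 ± 0.18, adjusted p = 0.00754) and the endothelin receptor Ednrb (0.56 ± 0.17, adjusted p = 0.0212). Mt1 and Mt2 are close paralogs, and reads that map to several transcripts were kept, so their values may share reads.

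**Figure D5:**
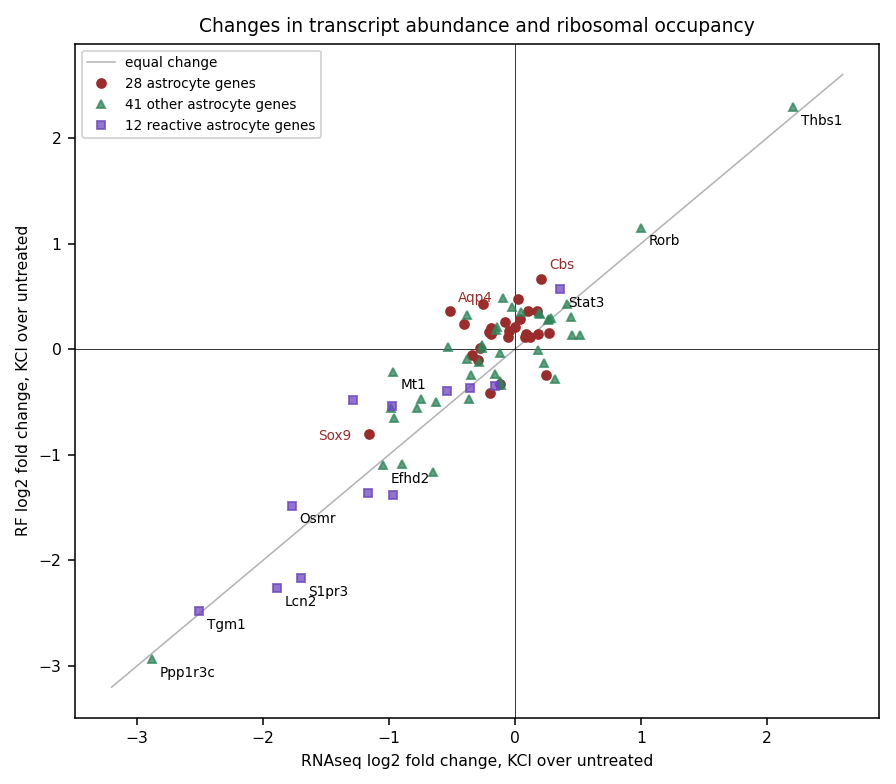
Log2 fold change of KCl over untreated cultures in RNAseq (horizontal) and RF (vertical) for the 28 measured astrocyte genes (red circles), 41 other astrocyte genes (green triangles) and 12 reactive astrocyte genes (purple squares), with a grey line of equal change. Most red points lie above the line and close to 0, and 11 of the 12 purple squares lie below 0 on both axes, the exception being Stat3.

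Markers of other cells in the culture were followed alongside. The summed RF level of the 33 astrocyte genes was 49407 to 53178 RPKM in untreated cultures and 60213 to 61970 RPKM after KCl, and in RNAseq it was 20795 to 21891 and 20269 to 22602 RPKM. The RF sum is weighted to the most abundant genes. Mean RF went from 12297 to 17079 RPKM in Apoe, from 7416 to 9525 in Cst3 and from 5216 to 6372 in Vim. In Gfap it was 8181 and 8229 RPKM. Of the 28 measured genes, 22 had a fitted RF change above 0 and 6 below. The summed RF level of 10 listed neuronal markers was 535 to 803 and 817 to 916 RPKM, that of 10 microglial markers 532 to 597 and 583 to 678 RPKM, that of 10 oligodendrocyte lineage markers 1629 to 1817 and 1815 to 2005 RPKM, that of 3 ependymal and choroid plexus markers 2446 to 2643 and 2955 to 2969 RPKM, and that of 5 progenitor markers 160 to 178 and 220 to 221 RPKM. The RF sum of 9 vascular and fibroblast markers was 624 to 730 RPKM untreated and 498 to 550 RPKM after KCl. The microglial and oligodendrocyte sums overlapped between the groups, the neuronal, ependymal and progenitor sums were higher after KCl without overlap, and the vascular sum was lower without overlap. In RNAseq the neuronal sum was 246 to 339 and 308 RPKM, the microglial sum 239 to 258 and 217 to 226 RPKM, and the oligodendrocyte sum 1724 to 1929 and 1677 to 1700 RPKM. The ependymal sum was 2558 to 2905 and 2818 to 3124 RPKM, the progenitor sum 36.8 to 42.5 and 36.8 to 49.7 RPKM, and the vascular sum 182 to 223 and 169 to 193 RPKM. In RNAseq the neuronal, ependymal, progenitor and vascular sums thus overlapped between the groups. Median TE changes were 0.27 for 4 measured neuronal markers, 0.30 for 3 microglial, 0.34 for 8 oligodendrocyte lineage, 0.23 for 3 ependymal, -0.21 for 2 progenitor and -1.06 for 3 vascular and fibroblast markers, beside 0.26 for the astrocyte genes. Among the progenitor markers Hes5, a target of Notch, fell (RNAseq log2 change -2.60 ± 0.40) and Pax6 rose (0.95 ± 0.18, edgeR adjusted p = 5.8e-05). All listed progenitor markers together had at most 42.5 RPKM in RNAseq in untreated cultures. A fall of that size puts Hes5 below the filter of 10 RPKM after KCl, so it passed only with the untreated cultures. Its fall is therefore given as a description. The vascular and fibroblast list had 3 measured genes, of which Col1a1 and Col3a1 fell in RF and in TE and Dcn rose in RF. The part of these cells in the changes of the astrocyte genes was not tested.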

How the data were processed

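RNAseq and RF libraries of 3 untreated and 2 KCl-treated cultures were analysed, with condition and culture number taken from the labels. A further KCl culture that the study left out for its small library is not analysed here. Per the labels and the study's methods, the authors trimmed reads (Trimmomatic 0.32), removed rRNA (STAR 2.3.1z8), aligned to mm10 transcripts (Bowtie2 2.2.2) with reads of several transcripts kept, and deposited raw read counts per transcript region (bedtools 2.20.1), without normalization. A region letter, not a name, marks each count, and the letters were assigned by their place and by read content against GENCODE M21 region lengths (GRCm38). Of the listed transcripts, 98.4% were matched. Positions near start and stop codons, which the authors left out of TE, could not be removed from counts per region.

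For RNAseq the reads of all regions were summed, and for RF those of the CDS were used. edgeR 4.0.16 in R 4.3.3 (TMM within each assay, quasi-likelihood test, Benjamini-Hochberg over all measured transcripts) gave each change. TE was tested as the assay-by-treatment interaction, blocked by culture because both libraries came from 1 lysate. The deviations of both assays from their group means correlated by -0.07 to 0.07 within cultures. The standard error is the absolute log2 change over the square root of F, an approximation. Counting error and culture spread are not separated. No 2 libraries agreed within sampling noise. The fits were tested on simulated counts. Alternatives were DESeq2 1.42.0, other scalings, filters and regions, 1 transcript per gene, single fits, and leaving out each culture. Python 3.11.15, numpy 2.4.6 and scipy 1.17.1 made the tables.

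The 36 genes, their roles and the other lists were chosen with earlier results of these data known. All 36 are accounted for, with values of every culture for those called in any comparison and for Gfap, Aqp4, Slc1a2, Slc1a3 and Aldh1l1. Of the other 2 astrocyte lists, up to 4 genes a direction are named by RNAseq change among those called with both KCl cultures beyond the untreated ones. Kcnj10, Tst, Ednrb, Cd14, the single markers of other cells that are named, and the extension test were chosen after their values were seen.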

Additional observations from a re-analysis of the deposited data

How the results depend on the processing

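Between alternatives, the direction of every called astrocyte gene was kept, and of 1198 refits of single astrocyte genes 1128 stayed on the same side of the threshold, while 37 lost and 33 gained a call. The RNAseq fit called 2395 transcripts, 4232 with filterByExpr, 4166 with no filter, 720 with at least 100 reads in every library, 1441 with 1 transcript per gene, 1532 with CDS reads only, and 1638 to 2637 without each culture in turn. The RF fit called 2971, and 5330, 5412, 1009, 1744 and 1698 to 3233 in the same order without the CDS setting. The TE fit called 421, 174 by DESeq2, 94 with at least 100 reads, 262 with 1 transcript per gene, 266 with RNAseq reads of the CDS only and 70 to 547 without each culture. Without the replicate block of culture, TE had 420 calls, 2 of them astrocyte genes, and the extension test had 14, so that the block changed no call of an astrocyte gene. Of astrocyte genes in RNAseq, 1 was higher with filterByExpr and with no filter (Dio2) and without untreated culture 1 (Lcat), 1 was lower with CDS reads only (Sox9), and 0 to 1 were higher and 2 to 6 lower without each culture. In RF, 16 (filterByExpr), 15 (no filter) and 5 (at least 100 reads) were higher, and 4 to 13 higher and 2 to 4 lower without each culture. In TE 0 to 4 were higher. Without KCl culture 5, RF had 1698 and TE 70 calls, and 2, 4 and 0 astrocyte genes were lower in RNAseq, higher in RF and higher in TE, and TE had 143 calls without KCl culture 4. Library totals in place of TMM moved the median of all transcripts to -0.10 in RNAseq and -0.14 in RF, the share of higher among called transcripts from 54.3% to 40.7% and from 50.9% to 33.7%, and the astrocyte genes called in RF to 5 higher and 4 lower, although 22 of 28 stayed above the median of all under both scalings. Called genes of the other astrocyte list were 12 with CDS reads only in RNAseq and 12 in RF with at least 100 reads, and 14 to 21, 13 to 25 and 0 to 5 in RNAseq, RF and TE without each culture. Called reactive genes were 5 and 7 with at least 100 reads in RNAseq and RF, and 9 to 11 and 8 to 12 without each culture. The extension test called 13 transcripts, 0 by DESeq2, 2 with at least 10 footprints and 1 to 13 without each culture (1 without culture 1, 2, 4 or 5), and of astrocyte genes 2, 0 by DESeq2 and 1 to 2 without each culture. Median baseline TE was 2.55 to 2.78 without each untreated culture and 1.43 with RNAseq reads of the CDS. These causes were not tested, other than that filters change which transcripts are tested. Exact permutation of the culture labels cannot go below p = 0.1 and reached it for 5, 14 and 8 of the 28 astrocyte genes in RNAseq, RF and TE, and for 39.8%, 46.3% and 19.2% of all measured transcripts. Precision is limited by 2 KCl cultures and by the RF libraries of cultures 3 and 4.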
